A study of Mus musculus with 11 samples.

Results

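The genes described here are 10 genes for tubulin, 4 of the α family (Tuba1a, Tuba1b, Tuba1c and Tuba4a) and 6 of the β family (Tubb2a, Tubb2b, Tubb3, Tubb4b, Tubb5 and Tubb6), chosen by symbol out of 24898 genes with a row in any of the 4 deposited expression tables. All 10 have a row in all 4 tables, as do 18667 genes in total. The cells came from the floor of the cochlear duct of wildtype CD1 mice and were captured by droplet (10x 3′) single-cell RNA sequencing. There are 2 libraries of embryonic day E14 and 3 of E16, and 4 of postnatal day P1 and 2 of P7. Each library holds cells of several pooled animals of either sex, no mouse was treated, and every library carries the same wildtype genotype. At P1 and P7 the tubulins were compared between hair cells (HCs), inner pillar cells, Deiters' cells and other cells of the same libraries. Other cells are those with few markers of these classes that were not gated as glia or mesenchyme. Cells between the gates are in no class. At E16 HCs and pillar cells were set against other cells, and at E14 HCs alone. HCs and other cells were then compared across all ages, pillar cells from E16 on and Deiters' cells from P1 on.

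Microtubules are hollow polymers of α- and β-tubulin dimers. Each chain is encoded by several genes, called isotypes, whose products differ mainly in the acidic tail at the end of the protein, where motor proteins and modifying enzymes act. Pillar and Deiters' cells are the supporting cells (SCs) of the organ of Corti known for thick bundles of microtubules that run from the apical to the basal end of the cell, while HCs carry microtubules below the cuticular plate and, when young, in the kinocilium.

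The last 48 coding bases of 5 isotypes are shown because they encode the tail and because they show how alike a pair can be that a 3′ assay has to tell apart. They run 5′ to 3′, include the stop codon, come from the GENCODE M21 transcripts (GRCm38), and have the last codon before the stop in capitals.
Tuba4a: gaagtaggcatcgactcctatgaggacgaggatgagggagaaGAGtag
Tubb2a: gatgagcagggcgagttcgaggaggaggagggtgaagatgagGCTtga
Tubb2b: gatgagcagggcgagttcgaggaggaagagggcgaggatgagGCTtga
Tubb4b: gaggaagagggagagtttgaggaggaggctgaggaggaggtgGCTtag
Tubb5: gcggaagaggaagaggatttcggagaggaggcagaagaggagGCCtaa
Tuba4a does not end in a codon for tyrosine, the residue that is removed and put back in the tyrosination cycle. Tubb2a and Tubb2b are the same at 45 of these 48 bases. On GRCm38 the α genes Tuba1b (chr15:98931425-98934565) and Tuba1a (chr15:98949837-98953703) lie beside each other on the minus strand, with Tuba1c on the plus strand at chr15:99029891-99038110, and Tuba4a lies elsewhere at chr1:75214228-75219865. Of the β genes, Tubb2a (chr13:34074274-34078007) and Tubb2b (chr13:34126748-34130466) are neighbours, and Tubb4b lies at chr2:25222160-25224702 and Tubb5 at chr17:35833921-35838306.

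Sequence sharing limits how well some isotypes were separated. Of the 341 stretches of 60 bases (the sequenced length) in the last 400 bases of each transcript, 42.2% in Tuba1a, 51.9% in Tuba1b and 57.8% in Tuba1c also occur in another gene, mainly in one another and in processed copies. The share was 29.9% in Tubb2a (with Tubb2b and a pseudogene) and 24.3% in Tubb4b (with pseudogenes). It was 0% for Tuba4a, Tubb2b, Tubb3, Tubb5 and Tubb6. An annotated gene on the same strand also overlaps Tuba1a and Tuba1b, and another overlaps Tubb3. The levels of Tuba1a, Tuba1b, Tuba1c, Tubb2a and Tubb4b are therefore uncertain to the extent that reads were set aside or assigned to a copy.

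The 11 libraries hold 1247 to 5598 cells each, with a median of 2478 to 5648 unique molecular identifiers (UMIs) per cell. Any pair of libraries shared at most 36 cell barcodes, and no pair more than 0.958% of the smaller library. Cells were placed in a class by how many genes of fixed marker lists had a UMI, which gave, in order of age, 48, 588, 1003 and 227 HCs, 7, 49, 184 and 25 pillar cells, 10, 87, 641 and 104 Deiters' cells, and 4889, 6658, 11208 and 2415 other cells. Pillar and Deiters' cells at E14 were too few to compare, the E16 pillar cells rest on 2 libraries, and the E16 Deiters' cells were not tested. Levels are counts per 1000000 UMIs (CPM), a mean over the cells of a class in a library. A molecule is counted once whatever its length, so levels of different isotypes can be set side by side within the limit on shared sequence. At P1 the summed HC markers stood at 19187 to 25133 CPM in HCs and 57.8 to 131 in other cells, and the inner pillar markers at 8013 to 21302 CPM in pillar cells, 474 to 886 in Deiters' cells and 47.2 to 99.3 in other cells. The markers meant for Deiters' cells overlapped between pillar cells (1916 to 4435 CPM) and Deiters' cells (3373 to 4465), so the latter class is defined largely by its lack of pillar markers, and outer pillar cells, which were not gated separately, may lie in it. Library 4 of P1 had the lowest Tuba1a and the lowest Tubb5 of the 4 P1 libraries in HCs, pillar cells, Deiters' cells and other cells alike. Comparisons between classes were therefore made within libraries, and tests that change without a library are named.

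At P1 each class had its own tubulin profile. Pillar cells held the most, with the 10 genes together at 10048, 4609.5, 5662 and 2769 CPM in libraries 1 to 4, against 5746, 2418, 3700.5 and 1745 in Deiters' cells, 2578, 2607, 3152 and 2109.8 in HCs and 2365, 1886, 2622 and 1386 in other cells. In every library pillar cells stood above Deiters' cells, and Deiters' cells stood above other cells.

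Of the 8 members tested in P1 pillar cells against other cells, 5 were higher and 1 was lower, against a background of 14.5% of all genes higher and 13.6% lower (limma, Benjamini-Hochberg adjusted over all genes tested). The median log2 difference was 0.72 over these 8 members and 0.01 over all genes. Tuba1a, the main α-tubulin of these cells, was at 6621, 2937, 3122 and 1550.3 CPM in pillar cells and 1109, 688, 1029 and 420.2 in other cells. Pillar cells were higher in each library, the lowest pillar value lying above the highest of other cells, by 2.02 ± 0.11 (SE, adjusted p = 5.78e-11) on the log2 scale, a ratio of means of 4.38. Tubb2b, a β-tubulin best known from developing neurons, was at 1105, 768, 1155 and 450.4 CPM against 251, 295, 426 and 215, again without overlap, a log2 difference of 1.48 ± 0.13 (SE, adjusted p = 5.99e-08). Tuba1b, a widely expressed α-tubulin, was higher by 0.92 ± 0.20 (SE, adjusted p = 0.00129), with 1161, 221, 425 and 273 CPM against 265, 155, 249.5 and 209. Pillar cells were the higher in each library, although the lowest pillar value of Tuba1b lay within the range of other cells. Tuba4a was higher by 1.06 ± 0.22 (SE, adjusted p = 0.0011) and Tubb2a by 0.52 ± 0.16 (SE, adjusted p = 0.0156). The Tubb2a call was lost without library 1 (log2 difference 0.37, adjusted p = 0.147), and the Tuba1b and Tubb2a calls in a fit without the library as a block. With no filter on low values, 2 of the 6 calls were kept, those of Tuba1a and Tubb2b. Tuba1c was the member that was lower, at 21.7, 0, 21.6 and 17.3 CPM against 31.6, 63.3, 68.1 and 57.5 (log2 difference -1.47 ± 0.30 SE, adjusted p = 0.000816). Tubb4b and Tubb5 did not pass the test, with log2 differences of 0.38, with a 95% interval of 0.01 to 0.75, and -0.12, with a 95% interval of -0.38 to 0.14. Tubb3 and Tubb6 were too low to be tested at P1, with none of the 4 main classes above 16.9 CPM in any library.

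P1 Deiters' cells had part of this profile at a smaller size. Of 8 members tested against other cells, 3 were higher and 2 lower (22.6% of all genes higher and 15.8% lower). Tuba1a was at 4099.6, 1416, 2414 and 836 CPM, above other cells in each of the 4 libraries although the ranges of the classes overlapped, by 1.28 ± 0.12 (SE, adjusted p = 4.98e-06) on the log2 scale. Tubb2b was higher by 0.50 ± 0.14 (SE, adjusted p = 0.014) and Tubb2a by 0.30 ± 0.10 (SE, adjusted p = 0.0255), the latter a call that was lost without library 2, 3 or 4. With cells thinned to 1500 UMIs, that of Tubb2a was near 0 (log2 difference 0.03, adjusted p = 0.913). Lower were Tubb5, an isotype high in dividing cells (log2 difference -1.23 ± 0.13 SE, adjusted p = 1.1e-05), and Tuba1c (-1.13 ± 0.16 SE, adjusted p = 0.000139). Without the library as a block, the Tuba1c call was the only one kept. Set directly against Deiters' cells, P1 pillar cells were higher in 5 of 8 members and lower in 0 (4.24% of all genes higher and 5.33% lower): Tuba4a (1.48 ± 0.23 SE, adjusted p = 2.22e-05), Tubb5 (1.11 ± 0.15 SE, adjusted p = 2.63e-06), Tubb2b (0.97 ± 0.10 SE, adjusted p = 1.79e-08), Tuba1a (0.75 ± 0.08 SE, adjusted p = 4.75e-08) and Tuba1b (0.64 ± 0.14 SE, adjusted p = 0.00205). The Tuba1b call was lost without library 1 (log2 difference 0.45, adjusted p = 0.0932). Without the library as a block, only the Tuba4a call was kept. Tubb5 was at 569.8, 328, 567 and 113 CPM in pillar cells and 243, 163, 164 and 74.5 in Deiters' cells, pillar cells being the higher in each library.

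P1 HCs had a profile of their own, led by Tubb4b and Tuba4a. Of 8 members tested, 3 were higher and 4 lower than in other cells, against a background of 40.9% of all genes higher and 28.4% lower. The median gene stood 0.14 higher in HCs on the log2 scale, and the median of the 8 members was 0.01. Tubb4b, a β-tubulin prominent in ciliary axonemes, was at 426, 424, 493 and 417 CPM in HCs and 112, 108, 121 and 149 in other cells, a log2 difference of 1.77 ± 0.11 (SE, adjusted p = 1.89e-07). Tuba4a was at 77.1, 123, 151 and 136 CPM against 17.5, 32.5, 32.9 and 50.5 (1.62 ± 0.13 SE, adjusted p = 1.17e-06). Neither gene overlapped between the classes, and Tuba1a was higher as well (0.77 ± 0.12 SE, adjusted p = 0.000168). Tubb5 was at 134, 131, 157 and 46.0 CPM in HCs and 473, 427, 571 and 149.6 in other cells (-1.67 ± 0.09 SE, adjusted p = 1.14e-07), and Tuba1c (-1.76), Tuba1b (-0.71) and Tubb2a (-0.31) were lower too. Tuba1c, with a mean of 9.04 CPM in HCs, passed the filter on low values through other cells, and was still called with no filter. The Tubb2a call was lost without library 1 or 3, and the Tuba1a and Tubb2a calls in a fit without the library as a block. Set against HCs, pillar cells were higher in 5 of 8 members and lower in 2 (21.3% of all genes higher and 28.9% lower). The pair lower in pillar cells was Tubb4b (-1.39 ± 0.16 SE, adjusted p = 8.15e-08) and Tuba4a (-0.56 ± 0.20 SE, adjusted p = 0.0216), the latter a call that was lost without library 2, 3 or 4, and also with cells thinned to 1500 UMIs (log2 difference -0.60, adjusted p = 0.15).

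**Figure D1:**
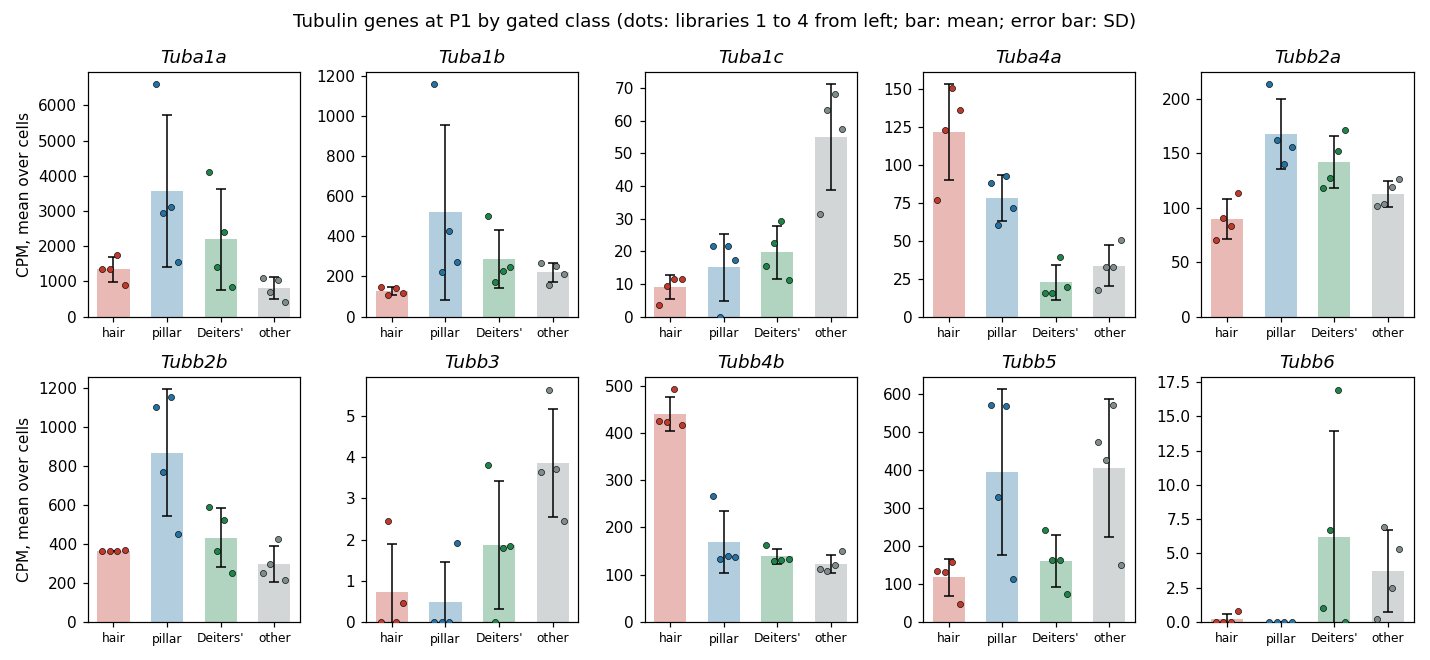
Levels of the 10 tubulin genes at P1 in HCs, pillar cells, Deiters' cells and other cells, in CPM on a linear axis that differs between genes, with points for libraries 1 to 4 from left to right, a bar at their mean and an error bar of 1 SD. Tuba1a, Tuba1b and Tubb2b have their highest bar in pillar cells, and Tuba4a and Tubb4b in HCs.

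Inner and outer hair cells (IHCs and OHCs) were separated at P1 mainly by 1 isotype, among 133 IHCs and 641 OHCs. Tubb2b was at 32.2, 56.3, 67.9 and 21.3 CPM in IHCs and 433, 405, 412 and 426 in OHCs, a log2 difference of -3.07 ± 0.19 (SE, adjusted p = 2.41e-14) and a 9.43-fold lower mean in IHCs, without overlap. Of 7 members tested, 1 was higher and 1 lower in IHCs (4.45% of all genes higher and 5.97% lower). The one that was higher was Tubb4b, at 556, 410.5, 594 and 552 CPM against 347, 427, 462 and 399 (0.36 ± 0.12 SE, adjusted p = 0.0435), but in library 2 the order was the opposite, and the call was lost without library 1, 3 or 4. At P7 the Tubb2b values were 42.8 and 34.0 CPM in IHCs and 97.5 and 60.9 in OHCs (log2 difference -0.86 ± 0.37 SE, adjusted p = 0.112). Limma called 0 of 7 members at that age against a background of 6.85% of all genes higher and 6.51% lower, and 1 member, Tubb2b, had an unadjusted p under 0.05. Whether the difference in Tubb2b changed between P1 and P7 was not tested.

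From P1 to P7 the classes moved apart. The 10 genes together stood in pillar cells at 30698 and 21169 CPM in libraries 4 and 5, which is 3.07% and 2.12% of all UMIs, and at 10725 and 5817 CPM in Deiters' cells, 1176 and 1008 in HCs and 2598 and 2120.2 in other cells. Ranked by mean CPM among all genes, Tuba1a was gene number 2 of P7 pillar cells, Tuba1b number 6 and Tubb4b number 41. The ranks of Tuba1a were 8 in Deiters' cells, 253 in HCs and 89 in other cells of that age. Each age was collected separately, so age and collection cannot be told apart.

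In pillar cells 6 of 8 members tested were higher at P7 than at P1 and 0 were lower, against a background of 4.17% of all genes higher and 4.99% lower. The P7 class holds only 25 cells. Tuba1b rose from 1161, 221, 425 and 273 CPM at P1 to 5417 and 4466 at P7, by 3.53 ± 0.44 (SE, adjusted p = 1.24e-05) on the log2 scale. Tubb4b rose from 267, 133, 138 and 136 CPM to 2414 and 1529 (3.50 ± 0.35 SE, adjusted p = 7.48e-07). Tuba1a rose from 6621, 2937, 3122 and 1550.3 CPM to 20218 and 13062 (2.38 ± 0.39 SE, adjusted p = 0.000383). For these genes the lowest P7 library lay above the highest P1 library, although library 1 of P1 stood apart from the other P1 libraries in Tubb4b. Tuba1c (2.60 ± 0.53 SE, adjusted p = 0.00264), Tubb2a (2.21 ± 0.36 SE, adjusted p = 0.000363) and Tuba4a (1.38 ± 0.38 SE, adjusted p = 0.0244) rose too. The Tuba1c call was lost without library 5 of P7 (log2 difference 2.40, adjusted p = 0.051), and the Tuba4a call without library 4 of P7 (log2 difference 1.00, adjusted p = 0.2) or library 2 of P1. With cells thinned to 1500 UMIs, the calls of Tuba1a, Tuba1b and Tubb4b were kept, and those of Tuba1c, Tuba4a (log2 difference 0.49, adjusted p = 0.713) and Tubb2a (log2 difference 2.13, adjusted p = 0.0571) were lost. On simulated data with these cell numbers, more of the simulated calls were false than the threshold allows. The simulated libraries had random noise of equal size and no library effect, so the share of false calls among those here is not known. A fit with profiles weighted by the spread of their group called 491 of 8484 genes and lost the Tuba4a call. Tubb2b, the leading β isotype of P1 pillar cells, was at 850.2 and 1072 CPM at P7 (log2 difference 0.22, with a 95% interval of -0.49 to 0.94), and Tubb5 at 184 and 179 (-0.84, with a 95% interval of -1.80 to 0.11). Earlier, from E16 to P1, limma called 0 of 8 members in pillar cells, with 0.425% of all genes higher and 0.425% lower. An unadjusted p under 0.05 was reached by 2 members, a count given without the share of all genes at that cutoff. Tuba1a was then at 1772 and 1771 CPM in the E16 libraries, and its log2 difference at P1 was 0.81, with a 95% interval of 0.03 to 1.60.

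Deiters' cells rose at P7 in 4 of 8 members tested and fell in 0 (4.48% of all genes higher and 5.87% lower). Tubb4b went from 162, 129, 131 and 132 CPM at P1 to 988 and 540.4 at P7 (2.32 ± 0.29 SE, adjusted p = 0.000101). Tuba1b (1.62 ± 0.36 SE, adjusted p = 0.00797), Tubb2a (1.36 ± 0.30 SE, adjusted p = 0.00774) and Tuba1a (1.53 ± 0.47 SE, adjusted p = 0.0485) rose as well. Library 4 of P7 had the higher value of each, and without it the log2 difference was 1.28 for Tuba1b (adjusted p = 0.182), 0.95 for Tubb2a (adjusted p = 0.195) and 1.05 for Tuba1a (adjusted p = 0.415). The Tuba1a call was also lost without library 5 of P7 or library 2 or 4 of P1, which leaves Tubb4b as the 1 of these 4 whose call did not depend on a single library. Over the same step the summed inner pillar markers in Deiters' cells went from a range of 474 to 886 CPM to 1152 and 1172, with at most 1 of 12 at 0, and the HC markers from a range of 159.9 to 381 to 792 and 869.6, with 11 and 12 of 16 at 0 at P7. Their part in the Deiters' cell result was not tested.

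HCs moved the other way. At P7, 5 of 7 members tested were lower than at P1 and 0 were higher (9.22% of all genes higher and 11.3% lower). Tubb2b fell from 362, 363, 363 and 367 CPM at P1 to 80.4 and 51.2 at P7, a change of -2.33 ± 0.26 (SE, adjusted p = 2.02e-05). Tuba1a went from 1357, 1357, 1748 and 900.5 CPM to 575 and 515 (-1.25 ± 0.28 SE, adjusted p = 0.0051), and Tubb4b from 426, 424, 493 and 417 to 262 and 249 (-0.76 ± 0.24 SE, adjusted p = 0.0356). Tuba4a (-1.24 ± 0.31 SE, adjusted p = 0.0107) and Tubb5 (-1.42 ± 0.38 SE, adjusted p = 0.0165) were lower too. The Tuba1a, Tubb4b and Tubb5 calls were lost without either P7 library, that of Tubb4b also without library 2 or 3 of P1, and the Tuba4a call without library 5 of P7, while that of Tubb2b did not depend on a library. The Tubb4b call was also lost with cells thinned to 1500 UMIs. Tuba1a had already stood lower in HCs at each earlier step, from 4234 and 3474 CPM at E14 to 2351, 2345 and 1935 at E16 and then to the P1 values. The first step was -0.80 ± 0.17 (SE, adjusted p = 0.0109) and the second -0.75 ± 0.23 (SE, adjusted p = 0.0314), and the first was lost without library 1 or 2 of E16 or library 1 of E14, and with cells thinned to 1500 UMIs or no filter on low values. Other cells stood lower at these steps too: the mean of E16 over that of E14 was 0.573 in other cells and 0.574 in HCs, and that of P1 over E16 0.706 and 0.606. From E16 to P1, 0 members rose and 5 of 8 fell (10.4% of all genes higher and 6.6% lower), with Tuba1c (-1.67), Tubb5 (-1.61) and Tuba1b (-1.21) falling the most. Tuba1c again passed the filter through the group where it was high, here E16, and was still called with no filter. The Tuba1a call of that step was lost without library 1 or 2 of E16 or library 2 of P1, as was the Tuba4a call (-0.90). From E14 to E16, Tubb4b rose (0.89 ± 0.26 SE, adjusted p = 0.0433), 1 of the 2 members called of 8 (5.85% of all genes higher and 4.37% lower), but most single libraries left out ended that call.

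**Figure D2:**
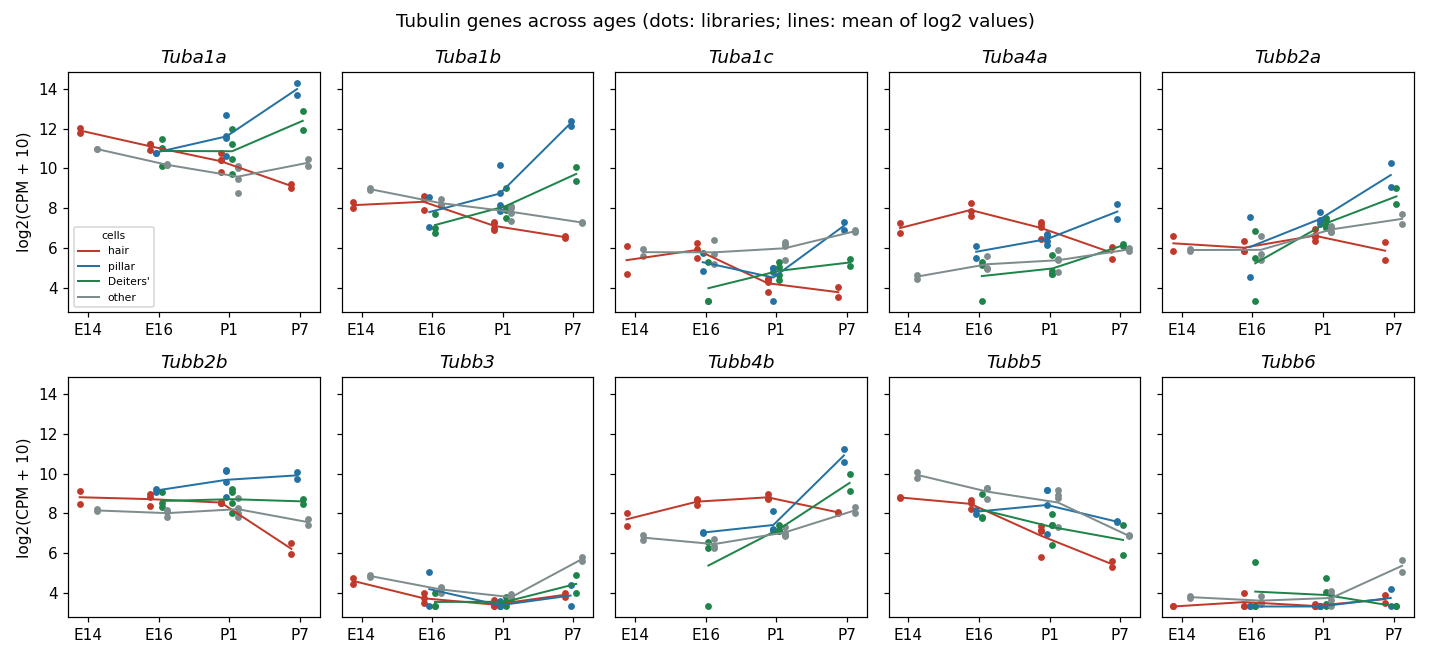
Levels of the 10 tubulin genes by age in HCs, pillar cells, Deiters' cells and other cells as log2(CPM + 10), with 1 point per library and lines through the class means. Pillar and Deiters' cells start at E16. Tuba1a reaches 20218 and 13062 CPM in P7 pillar cells and 575 and 515 in P7 HCs.

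Against other cells at P7, 6 of 10 members were higher and 1 lower in pillar cells (9.7% of all genes higher and 9.48% lower), 5 of 10 higher and 3 lower in Deiters' cells (15.7% of all genes higher and 15.1% lower), and 0 of 10 higher and 8 lower in HCs (37.6% of all genes higher and 28.4% lower). With 2 libraries per class, limma took the spread at P7 mostly from other genes, so these p-values rest little on the libraries' own spread. The values showed wide gaps in pillar cells. Tuba1b was at 5417 and 4466 CPM there and 142 and 149 in other cells, a log2 difference of 4.99 ± 0.20 (SE, adjusted p = 2.14e-11) and a ratio of means of 33.9. The ratio was 13.3 for Tuba1a (log2 difference 3.70 ± 0.16 SE, adjusted p = 3.41e-11) and 7.10 for Tubb4b (2.76 ± 0.21 SE, adjusted p = 4.87e-08). Tubb2b (2.36), Tubb2a (2.20) and Tuba4a (1.91) were also higher, while Tubb3 was lower (-1.83). Tubb3 and Tubb6 in pillar cells, Tubb6 in Deiters' cells and Tuba1c, Tubb3 and Tubb6 in HCs passed the filter on low values through other cells, so that lower was the one call open to them. With no filter the calls among these were kept, apart from that of Tubb3 in pillar cells. The Tubb2a and Tubb3 calls in pillar cells were lost without the library as a block. The median pillar cell held 11300 and 11227 UMIs and the median other cell 4328 and 4873.5. When every cell was thinned to 1500 UMIs, the log2 differences were 4.95, 3.67 and 2.85 for Tuba1b, Tuba1a and Tubb4b, but the adjusted p of each was 0.172, and limma called 0 of 8083 genes in that fit, with 1871 genes and 7 members at an unadjusted p under 0.05. The thinned difference of Tuba4a was smaller, at 1.11 (adjusted p = 0.514). In Deiters' cells Tuba1a was at 7500.4 and 3838 CPM (ratio of means 4.54), Tuba1b at 1055 and 659 (log2 difference 2.44 ± 0.17 SE) and Tubb4b at 988 and 540.4 (1.37 ± 0.16 SE). With cells thinned to 1500 UMIs, the Tubb2b, Tubb3 and Tubb6 calls in Deiters' cells were lost, which leaves 5 of 8. Set directly against Deiters' cells, pillar cells were higher in 7 of 8 members (3.04% of all genes higher and 4% lower), the furthest apart being Tuba1b (2.55 ± 0.14 SE), the 1 call of these kept without the library as a block. Set against HCs, pillar cells were higher in 8 of 8 (13.2% of all genes higher and 17.3% lower). Tuba1c, with a mean of 3.91 CPM in HCs, passed the filter through pillar cells, so that higher was the one call open to it. With cells thinned to 1500 UMIs, the Tuba1c, Tuba4a and Tubb5 calls against HCs were lost, with Tubb5 at a log2 difference of 0.34 (adjusted p = 0.91), as were the Tuba1c, Tuba4a and Tubb2a calls against Deiters' cells. In P7 HCs the isotypes that led at P1 were the 2 members not called, Tuba4a with a log2 difference of -0.16, with a 95% interval of -0.57 to 0.25, and Tubb4b with -0.11, with a 95% interval of -0.44 to 0.22. The 8 lower members had log2 differences of -3.07 to -0.74, with Tuba1a at 575 and 515 CPM against 1402 and 1097 in other cells.

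**Figure D3:**
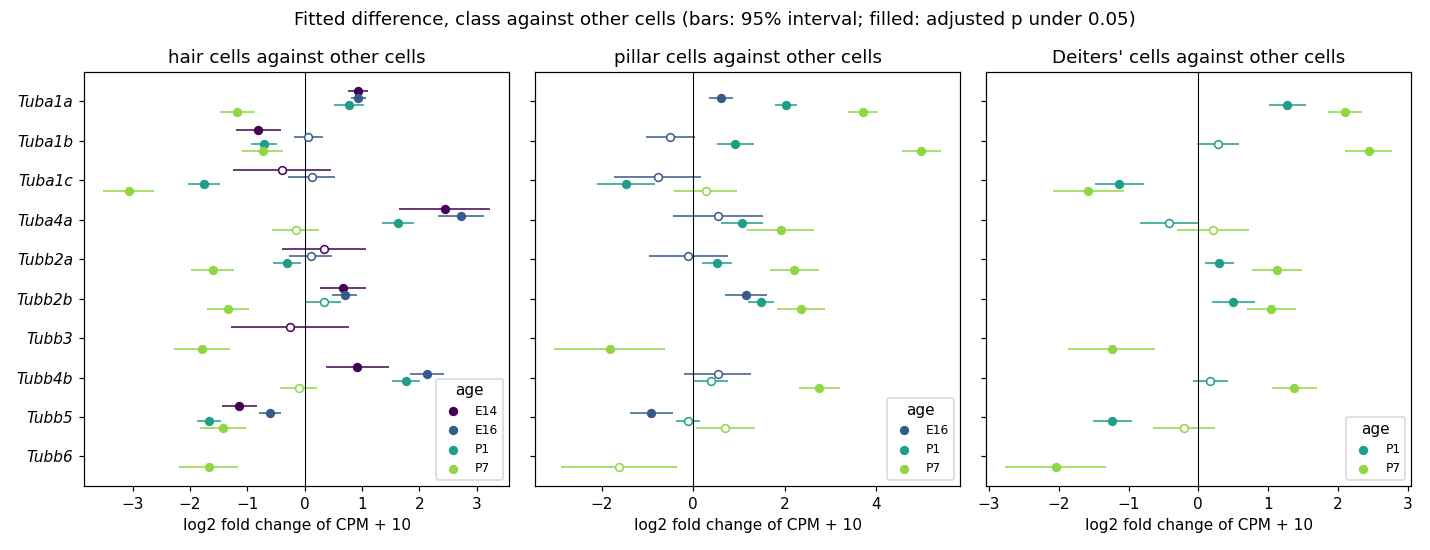
Log2 differences of the tubulin genes against other cells of the same age in HCs, pillar cells and Deiters' cells, with 95% intervals from limma and filled points for adjusted p under 0.05. In pillar cells Tuba1b moves from 0.92 at P1 to 4.99 at P7, and in HCs Tubb4b moves from 1.77 to -0.11.

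The change in each difference between P1 and P7 was tested in 1 model over both ages, a comparison added after the data had been seen. The pillar difference was higher at P7 in 7 of 8 members and lower in 0 (7.73% of all genes higher and 9.77% lower), by 4.07 ± 0.35 (SE, adjusted p = 3.78e-07) for Tuba1b, 2.38 ± 0.30 (SE, adjusted p = 3.17e-05) for Tubb4b and 1.68 ± 0.20 (SE, adjusted p = 1.65e-05) for Tuba1a. With cells thinned to 1500 UMIs these 3 calls were kept and those of Tuba1c, Tubb2a, Tubb2b and Tubb5 were lost, and the change in Tubb5 turned from 0.83 to -1.19 (adjusted p = 0.445). With profiles weighted by the spread of their group, 4 of the 7 calls were kept, and those of Tuba1c, Tubb2b and Tubb5 were lost. Equal weights gave too many false calls on simulated data for pillar cells between these ages, and the change in the difference was not itself simulated. In Deiters' cells it was higher in 5 of 9 and lower in 1 (11.4% of all genes higher and 14.2% lower), with Tuba1b (2.16 ± 0.26 SE, adjusted p = 3.41e-05) and Tubb4b (1.21 ± 0.21 SE, adjusted p = 0.000776) the furthest apart. The 1 lower member was Tubb3, which passed the filter on low values through P7 other cells. Its means were 1.87 CPM in Deiters' and 3.87 in other cells at P1, and 13.1 and 42.1 at P7. In HCs the difference was lower in 6 of 8 and higher in 0 (17.8% of all genes higher and 19.8% lower), with Tuba1a (-1.95 ± 0.19 SE, adjusted p = 4.78e-06), Tubb4b (-1.88 ± 0.18 SE, adjusted p = 4.6e-06) and Tuba4a (-1.78 ± 0.25 SE, adjusted p = 8.43e-05) changing the most. Tuba1c, 1 of these 6 calls, had means of 9.04 and 3.91 CPM in HCs at P1 and P7 and passed the filter through other cells. Calls that were lost without at least 1 library were those of Tuba1c, Tubb2b and Tubb5 in pillar cells and of Tuba1a, Tubb3 and Tubb5 in Deiters' cells, while the 6 calls in HCs did not depend on a library. Each change also holds the change in other cells. Mean Tuba1b went from 520 to 4942 CPM in pillar cells and 220 to 146 in other cells. Mean Tubb2b went from 870 to 961 CPM in pillar cells and 297 to 179 in other cells. Mean Tubb5 went from 395 to 182 CPM in pillar cells, 161 to 106 in Deiters' cells and 405 to 108 in other cells. Mean Tubb4b went from 440 to 255 CPM in HCs and 123 to 278 in other cells.

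The tubulin sum was also read cell by cell. All 10 genes were summed per cell, and the cells above the 90th percentile of other cells of their own library were counted. At P7 these were 14 of 14 and 10 of 11 pillar cells in libraries 4 and 5, and the median pillar cell held 29200.1 and 22895 CPM. The share was 77.8% and 62.0% in Deiters' cells and 0% in HCs of both libraries. At P1 it was 96.4%, 57.6%, 75.0% and 50% in pillar cells of libraries 1 to 4, where the median pillar cell held 9112, 3662, 5253 and 2495 CPM. The P1 share of library 1 was thus above that of P7 library 5, while both P7 medians lay above all 4 P1 medians.

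**Figure D4:**
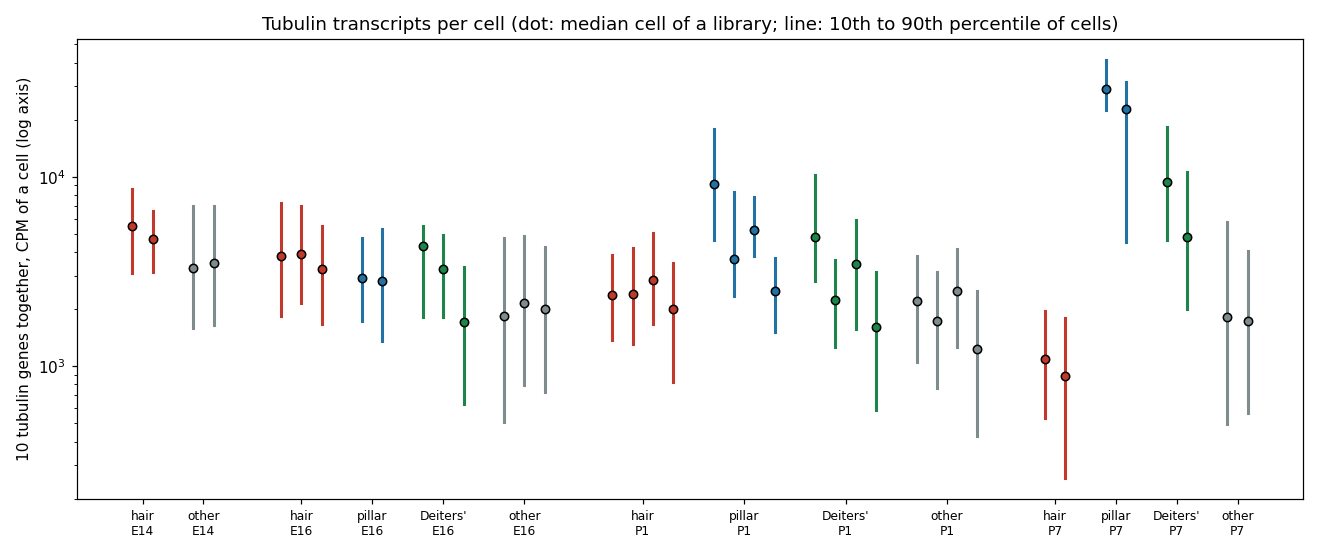
Summed level of the 10 tubulin genes per cell, in CPM on a log axis, by age and class, with the median of each library as a point and the span from the 10th to the 90th percentile of its cells as a line. The median P7 pillar cell holds 29200.1 and 22895 CPM and the median P7 HC 1089 and 888.

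The make-up of the pool differed between classes as well as its size. Among the 4 α genes Tuba1a gave most of the UMIs in HCs, pillar cells, Deiters' cells and other cells at every age compared, with 80.5% ± 1.79 (SD, n = 2) in P7 HCs. Its share in P7 pillar cells was 75.4% ± 3.15, where Tuba1b made up 22.9% ± 2.99. The β genes changed places. In HCs the share of Tubb4b among the 6 β genes went from 17.1% ± 2.14 at E14 (n = 2) to 31.4% ± 0.902 at E16 (n = 3), 43.5% ± 1.33 at P1 (n = 4) and 62.0% ± 5.54 at P7 (n = 2). By subtype, from P1 to P7 the mean share went from 39.8% ± 2.92 to 57.6% ± 13.6 in OHCs and from 71.8% ± 9.56 to 68.1% ± 4.35 in IHCs, and gated IHCs numbered 133 of 1003 HCs at P1 and 79 of 227 at P7. In pillar cells Tubb2b led at P1 with 54.2% ± 2.89 and made up 25.2% ± 9.90 at P7, while Tubb4b went from 11.2% ± 3.85 to 48.8% ± 4.09. In Deiters' cells Tubb2b went from 47.9% ± 6.25 to 24.0% ± 5.52 and Tubb4b from 16.3% ± 3.38 to 45.6% ± 2.80, and in P7 other cells Tubb4b made up 34.4% ± 0.295. In other cells Tubb5 went from 68.5% ± 3.14 at E14 to 57.6% ± 6.98, 41.1% ± 12.2 and 13.5% ± 1.94. P1 IHCs and OHCs stood apart in the share of Tubb2b, at 5.93% ± 2.61 and 41.0% ± 3.43. These shares are descriptions, and no test was run on them.

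**Figure D5:**
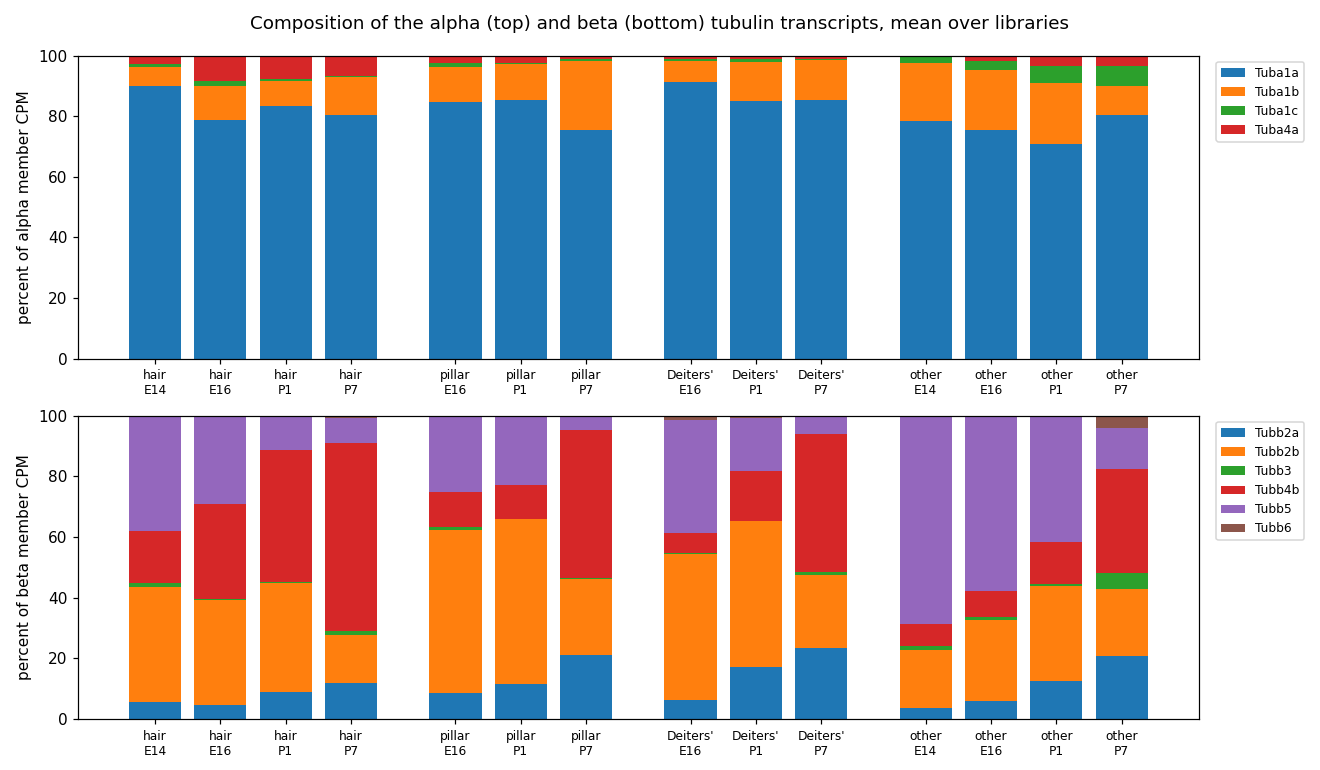
Share of each isotype in the summed CPM of its own family (α or β) by age and class, as stacked bars that show the mean of the libraries in percent. Tuba1a fills most of every α bar, and among the β genes Tubb4b takes the largest part in all 4 classes at P7.

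Mean Tubb5 stood lower in other cells at each later age. The step from E16 to P1 was not called and its values overlapped, and the calls of the other steps rested on few libraries. The E14 libraries held 879 and 1076 CPM and the E16 libraries 611, 621 and 407, while the P1 libraries held 473, 427, 571 and 149.6 and the P7 libraries 109 and 106. The step from E14 to E16 was -0.85 ± 0.21 (SE, adjusted p = 0.0328), 1 of 4 members called lower and 0 higher among 9 (5.09% of all genes higher and 14.2% lower), and the call was lost without library 1 or 2 of E16 or either E14 library. The median gene shifted by -0.17 in that step, and when profiles were centred on the median gene only the Tuba1a call was kept. That call was in turn lost without library 2 of E16 or either E14 library. The Tubb3 call of that step was lost with no filter on low values, and the gene had passed the filter through E14. The step from P1 to P7 was -1.67 ± 0.46 (SE, adjusted p = 0.0323), with 3 members higher, 1 lower and 6 not called (9.05% of all genes higher and 10.4% lower). It was lost without library 1, 2 or 3 of P1 or either P7 library, and when profiles were centred on the median gene. The members that rose in other cells at P7 were Tubb4b (1.12 ± 0.21 SE, adjusted p = 0.00638), Tubb3 (1.91 ± 0.16 SE, adjusted p = 9.26e-05) and Tubb6 (1.62 ± 0.24 SE, adjusted p = 0.00203), of which Tubb4b was not called without library 4 of P7, and Tubb6 was then too low to be tested. Tubb3 and Tubb6 lay under 10 CPM in each P1 library and passed the filter through P7, so that higher at P7 was the one call open to them, and with no filter both were still called. Tubb3, the isotype used as a neuronal marker, went from 3.63, 5.64, 3.73 and 2.45 CPM at P1 to 45.5 and 38.7 at P7. Over the same step the summed level of 6 neuron markers in other cells went from a range of 72.4 to 279.8 CPM to 17.99 and 18.02 in the P7 libraries, with 2 of the 6 at 0. At P1 the sum was mostly 1 of these genes, Stmn2, which alone was at 67.9 to 272 CPM, so it says little about the number of neurons. The summed level of 6 mesenchyme markers went from a range of 741 to 913 CPM to 1471 and 1618. The part of these cells in the Tubb3 and Tubb6 results was not tested. Tubb6 went from 0.196, 6.90, 2.45 and 5.34 CPM to 40.7 and 23.6. Between E16 and P1 only Tubb2a was called of 8 (3.41% of all genes higher and 4.24% lower), and most libraries left out ended that call.

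At E14 several isotypes followed the cell cycle genes. Cells with at least 4 of 12 cycling markers were set against those with at most 1 (754 and 3784 cells). Tuba1b was at 1379 and 1410.3 CPM in cycling and 298 and 307 in non-cycling cells (log2 difference 2.17 ± 0.06 SE), and Tubb5 at 2205 and 2605 against 636 and 732 (1.80 ± 0.05 SE). Tubb4b (1.80 ± 0.08 SE), Tuba1c (1.22 ± 0.12 SE), Tubb2b (0.57 ± 0.07 SE) and Tuba1a (0.29 ± 0.05 SE, adjusted p = 1.16e-08) were higher too, 6 of 9 in all with 0 lower (15.7% of all genes higher and 20.1% lower). With 2 libraries per class, limma took the spread here from other genes, so these p-values rest little on the libraries' own spread. At E16, libraries that this comparison did not use, Tuba1b was at 1179, 1726 and 2689 CPM in cycling and 207, 269 and 226 in non-cycling cells, and Tubb5 at 2279, 2157 and 2823 against 516, 547 and 355. Among non-cycling other cells alone, the Tubb5 and Tuba1b calls from E14 to E16 were lost. The non-cycling values given above for both genes were still lower in each E16 library than in either E14 library. Both calls were also lost when single libraries were left out, and the part of cycling cells in the step was not tested. The step from P1 to P7 was not refitted in non-cycling cells.

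Before birth the differences between HCs and other cells were already present for Tuba4a and Tubb4b. At E16, 4 of 8 members were higher and 1 lower in HCs (20.2% of all genes higher and 20.1% lower), with Tuba4a at 222, 298 and 184 CPM against 22.3, 20.7 and 38.4 (2.73 ± 0.19 SE, adjusted p = 9.13e-10) and Tubb4b at 411, 392.2 and 329.9 against 72.2, 67.8 and 96.2 (2.14 ± 0.14 SE, adjusted p = 2.96e-10). Tuba1a (0.93 ± 0.06 SE, adjusted p = 3.99e-10) and Tubb2b (0.70 ± 0.10 SE, adjusted p = 1.67e-05) were also higher. At E14, with 48 HCs, 4 of 9 were higher and 2 lower (4.3% of all genes higher and 5.62% lower), Tuba4a at 142 and 97.5 CPM against 15.4 and 11.9 in other cells. E16 pillar cells were higher in 2 of 8 members and lower in 1 (2.41% of all genes higher and 2.73% lower), with Tubb2b at 591 and 528 CPM against 219 to 276 in other cells (1.15 ± 0.23 SE). The E14 HC and E16 pillar comparisons have 2 libraries per class, and limma took their spread mostly from other genes. When cells were thinned to 1500 UMIs, limma called 0 members in E14 HCs and 0 in E16 pillar cells, with 5 still called in E16 HCs. At an unadjusted p under 0.05 there were 4 members in E14 HCs and 4 in E16 pillar cells. These counts are given without the share of all genes at that cutoff, so nothing is read from them. The thinned fits called 27 of 8695 genes in E14 HCs, 81 of 8605 in E16 pillar cells and 2938 of 9043 in E16 HCs. Between E16 and P1 the difference between HCs and other cells went down in 4 of 8 members and up in 0 (15.6% of all genes higher and 10.1% lower), with changes of -1.88 for Tuba1c, -1.11 for Tuba4a, -1.06 for Tubb5 and -0.77 for Tuba1b, the last a call that was lost with cells thinned to 1500 UMIs (log2 difference -0.60, adjusted p = 0.0643).

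Genes that build, bind or modify microtubules were read from 7 lists of 93 genes in all. In the comparisons with other cells at P1 the members that passed the test were 33 of 60 higher and 12 lower in HCs, 13 of 58 higher and 6 lower in pillar cells and 20 of 56 higher and 6 lower in Deiters' cells, with medians of 0.41, -0.03 and 0.18 on the log2 scale. At P7 they were 27 of 63 higher and 15 lower in HCs, 8 of 55 higher and 10 lower in pillar cells and 10 of 54 higher and 6 lower in Deiters' cells, with medians of 0.46, -0.06 and -0.09. The shares called over all genes are those given above for the same comparisons. At P1 the binding and stabilising proteins had 10 of 17 higher and 4 lower in HCs, 6 of 16 higher and 4 lower in pillar cells and 6 of 15 higher and 2 lower in Deiters' cells. The tail-modifying enzymes and their partners had 8 of 13 higher and 1 lower, 5 of 12 higher and 0 lower, and 4 of 12 higher and 1 lower. For nucleation these were 4 of 8 higher and 2 lower in HCs and 2 of 8 higher and 0 lower in Deiters' cells, while the 8 tested in pillar cells did not pass. For plus-end proteins they were 4 of 9 higher and 2 lower, 0 of 9 higher and 1 lower, and 4 of 9 higher and 1 lower. The folding cofactors had 3 of 6 higher and 2 lower, 1 of 6 higher and 0 lower, and 2 of 6 higher and 1 lower, and the depolymerising and severing proteins 3 of 6 higher and 1 lower, 1 of 6 higher and 1 lower, and 1 of 5 higher and 1 lower. Of the 10 other tubulins only Tubg1 was high enough to be tested at P1, with log2 differences of 0.58 (adjusted p = 0.0137) in HCs, -0.01 (adjusted p = 0.986) in pillar cells and 0.55 (adjusted p = 0.00622) in Deiters' cells.

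Cep41, needed for glutamylation of tubulin in cilia, differed the most in P1 pillar cells, at 395 to 1013 CPM against 2.45 to 13.3 in other cells (log2 difference 5.07 ± 0.19 SE, adjusted p = 1.64e-13). It was also the furthest apart in Deiters' cells (4.16). Map4, a stabilising protein, was at 303 to 355 CPM against 27.6 to 46.2 in other cells (log2 difference 2.79 ± 0.16 SE, adjusted p = 6.44e-11), and in HCs it was lower (-1.39). Mtus2 (2.69), Stmn1 (2.44), whose product sequesters tubulin dimers, Map7d2 (1.60) and Mtus1 (1.49) were higher in pillar cells too. In Deiters' cells Mtus2 (1.65), Nin (1.27), Dclk1 (1.12), Stmn1 (1.08) and Mid1ip1 (1.07) followed Cep41. HCs had another set. Cdk5rap2, a centrosomal protein that binds the γ-tubulin ring complex, was at 512 to 754 CPM against 12.3 to 15.0 in other cells (log2 difference 4.80 ± 0.11 SE, adjusted p = 4e-10). Stmn3 (4.15), Nin (2.97), a protein that anchors minus ends, Vash2 (2.42) and its partner Svbp (2.19), which together remove the final tyrosine of α-tubulin, and Map2 (1.82) were also higher in HCs. Cep41, Map7d2, Stmn3, Nin and Map2 had means under 10 CPM in other cells and passed the filter through the class where they were high. Higher was thus the one call open to them, and the list counts above include such calls.

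Stmn2 was the list gene furthest below other cells in each class, with log2 differences of -2.99 in HCs, -3.18 in pillar cells and -3.18 in Deiters' cells. It is also 1 of the 6 neuron markers, whose sum was at 72.4 to 279.8 CPM in other cells and 14.3 to 33.3, 13.6 to 20.1 and 7.47 to 26.2 in HCs, pillar cells and Deiters' cells. Stmn2 alone was at 67.9 to 272 CPM in other cells, so the sum there is mostly Stmn2 itself and no separate measure of neurons. The part of neurons in the Stmn2 difference was not tested. The plus-end protein Mapre2 was lower in all 3 classes (-1.12, -1.14 and -1.47). Tppp3 was lower in HCs (-1.59) and pillar cells (-1.82), Dclk2 in HCs (-1.31) and Deiters' cells (-1.02), and Map9 in pillar cells (-0.75) and Deiters' cells (-0.59). Dclk1 was higher in Deiters' cells but lower in HCs (-1.63) and pillar cells (-1.08). The lower sets also held Map1b (-0.53) in pillar cells and Tbcel (-0.78) and Ttll3 (-0.66) in Deiters' cells. Map4, Dclk1 and Dclk2 in HCs and Tppp3 in pillar cells had means under 10 CPM there. They passed the filter through other cells, so that lower was the one call open to them.

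Likeness of pattern was measured as Pearson's r of log2(CPM + 10) over 41 profiles, 1 per class and library of HCs, pillar cells, Deiters' cells and other cells at all ages, among 9145 genes. Profiles of a library share their depth and dissociation, and r is given as a description. For Tuba4a, the isotype with the widest range of class means at P1 on the log2(CPM + 10) scale (2.04, against 2.02 for Tuba1a), the closest genes were Tubb4b (r = 0.811), Fam19a5 (r = 0.767) and Gpx2 (r = 0.763). Those of Tuba1a were Tuba1b (r = 0.813), Prkar2b (r = 0.757) and Tril (r = 0.748), of which Tuba1b shares 3′ end sequence with it and Tril is a marker used to gate pillar cells. Those of Tubb4b were Hebp2 (r = 0.865), Lima1 (r = 0.834) and Fam160a1 (r = 0.812), and those of Tuba1c were Chd3 (r = 0.721), Tnfrsf1a (r = 0.706) and Sec22b (r = 0.702).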

How the data were processed

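The deposited values are on a natural log (ln) scale. A gene's fraction of the UMIs of a cell was multiplied by 10000, and 1 was added before the log. Per the methods and the submitters' processing notes, the authors aligned reads with Cell Ranger 2.1.1 (build mm10), then filtered and normalised in Seurat 2.0. UMIs worked back from these values were whole within 2% throughout, and each cell was read as CPM. Columns of other samples numbered 0.

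Cells were gated one by one on markers with a UMI: HCs on at least 5 of 16, pillar and Deiters' cells on at least 5 or 7 of 14 shared markers and at least 3 of their own (with at least 3 Npy UMIs for pillar cells, and at most 1 for Deiters' cells, which were also held to few inner phalangeal and Hensen's cell markers), and other cells on at most 2 HC and 3 shared markers, without gated glia or mesenchyme. No tubulin was a marker. The numbers needed were set after the marker counts had been seen, and several markers come from the study's own lists on these libraries. No doublet caller was run, and cells that passed both the HC and the shared gate were set aside. Classes with fewer than 5 cells in a library were left out there. The 10 members and the microtubule lists were chosen with earlier results of these data known. The genes named are all members, the list genes furthest from 0 among those called (at most 6 higher and 6 lower) and the 3 genes most like each of 4 members.

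Each class of each library gave 1 profile, the mean CPM of its cells. Limma 3.58.1 (mean trend, R 4.3.3) was fitted on log2(CPM + 10) to genes whose mean reached 10 CPM. The Benjamini-Hochberg adjustment ran across every gene tested, with a threshold of 0.05. A log2 difference on this scale understates the change of low genes. Classes of 1 age were compared with the library as a block, since both come from the same droplets, and ages without one, since each age has its own libraries. Libraries are separate collections of pooled animals. Alternatives changed the pseudocount, filter, averaging, gate, depth, centring, block, weights and libraries used. The fits were tested on simulated data with known changes, where more calls than the threshold allows were false in pillar cells between P1 and P7 with equal weights, and the fit with weights was added for that reason. Python 3.11.15 was used.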

Additional observations from a re-analysis of the deposited data

Results flagged for a closer look

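In 4 of 31 groups of 4 P1 libraries (31 gene and class pairs were tested), 1 library stood apart from the other libraries of its group by Dixon's ratio of gap to range, above its 95% critical value. Chance alone flags about 1 group in 20. They were Tubb4b in pillar cells, where library 1 lay above the rest (267, 133, 138 and 136 CPM, ratio 0.962), Tubb4b in Deiters' cells, again with library 1 on top (162, 129, 131 and 132 CPM, ratio 0.908), Tubb4b in HCs with library 3 on top (426, 424, 493 and 417 CPM, ratio 0.880) and Tuba4a in Deiters' cells, also with library 3 on top (15.8, 15.7, 39.5 and 19.2 CPM, ratio 0.855).

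The difference between a class and other cells changed with age in 23 cases by limma's test of the change itself, with 9 members tested in Deiters' cells and 8 in each other comparison. Over all genes, 15.6% were higher and 10.1% lower for HCs from E16 to P1. From P1 to P7 these shares were 17.8% and 19.8% in HCs, 7.73% and 9.77% in pillar cells and 11.4% and 14.2% in Deiters' cells. From E16 to P1 the HC difference changed by -0.77 for Tuba1b, -1.88 for Tuba1c, -1.11 for Tuba4a and -1.06 for Tubb5 on the log2 scale. From P1 to P7 it changed by -1.95 for Tuba1a, -1.31 for Tuba1c, -1.78 for Tuba4a, -1.29 for Tubb2a, -1.67 for Tubb2b and -1.88 for Tubb4b. Over the same step the pillar difference changed by 1.68 for Tuba1a, 4.07 for Tuba1b, 1.74 for Tuba1c, 1.68 for Tubb2a, 0.88 for Tubb2b, 2.38 for Tubb4b and 0.83 for Tubb5. The Deiters' difference changed by 0.83 for Tuba1a, 2.16 for Tuba1b, 0.83 for Tubb2a, -1.01 for Tubb3, 1.21 for Tubb4b and 1.02 for Tubb5. The pillar and Deiters' cells share their other cells, so these changes are not independent of each other, and each age was collected separately.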

How the results depend on the processing

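The 144 called differences were refitted under other settings, which gave 1712 values. Of these, 1711 kept their direction, 227 of them with a test that did not pass the threshold, and 1 reversed: with cells thinned to 1500 UMIs, the change from P1 to P7 of the difference between pillar and other cells was -1.19 for Tubb5 (adjusted p = 0.445). The 1711 also hold refits without a test, those of class comparisons with 2 libraries of which 1 was left out. Of 341 counts of members called, 277 stayed within 1.5 times the reported count. With UMIs summed over the cells of a class in place of a mean per cell, the count was 3 (not 5) for hair cells (P1 against E16). With cells thinned to 1500 UMIs, the count was 0 (not 6) for E14 hair cells against other cells, 0 (not 3) for E16 pillar cells against other cells, 1 (not 2) for P1 inner against outer hair cells, 0 (not 7) for P7 pillar cells against other cells, 5 (not 8) for P7 Deiters' cells against other cells, 4 (not 7) for P7 pillar cells against Deiters' cells, 5 (not 8) for P7 pillar cells against hair cells, 0 (not 2) for hair cells (E16 against E14), 3 (not 6) for pillar cells (P7 against P1) and 3 (not 7) for pillar cells over other cells (P7 against P1). With no filter on low values, the count was 2 (not 6) for P1 pillar cells against other cells, 1 (not 2) for P1 inner against outer hair cells, 2 (not 4) for other cells (E16 against E14), 0 (not 1) for other cells (P1 against E16), 0 (not 2) for hair cells (E16 against E14), 3 (not 5) for hair cells (P1 against E16) and 4 (not 7) for pillar cells over other cells (P7 against P1). Without the library as a block, the count was 3 (not 6) for E14 hair cells against other cells, 1 (not 3) for E16 pillar cells against other cells, 1 (not 5) for P1 Deiters' cells against other cells, 1 (not 5) for P1 pillar cells against Deiters' cells, 1 (not 2) for P1 inner against outer hair cells and 1 (not 7) for P7 pillar cells against Deiters' cells. Among non-cycling other cells, the count was 2 (not 4) for other cells (E16 against E14) and 2 (not 1) for other cells (P1 against E16). With profiles centred on the median gene, the count was 1 (not 4) for other cells (E16 against E14). With profiles weighted by the spread of their group, the count was 1 (not 2) for hair cells (E16 against E14) and 4 (not 7) for pillar cells over other cells (P7 against P1). With a pseudocount of 1 CPM, the count was 1 (not 2) for P1 inner against outer hair cells and 1 (not 2) for hair cells (E16 against E14). With a stricter gate, the count was 1 (not 0) for P7 inner against outer hair cells and 1 (not 2) for hair cells (E16 against E14). Without cells above 2 times the median UMIs, the count was 3 (not 6) for E14 hair cells against other cells, 1 (not 2) for P1 inner against outer hair cells, 1 (not 0) for P7 inner against outer hair cells, 1 (not 2) for hair cells (E16 against E14) and 2 (not 4) for Deiters' cells (P7 against P1). The median P7 pillar cell, at 11300 and 11227 UMIs, lay above this cutoff (library medians of 4510 and 4849.5). Many P7 pillar cells were thus left out, and the setting says little about doublets in that class. Leaving out 1 library at a time gave 1 to 2 for P1 inner against outer hair cells, 0 to 6 for other cells (E16 against E14), 0 to 1 for other cells (P1 against E16), 1 to 5 for other cells (P7 against P1), 0 to 2 for hair cells (E16 against E14), 3 to 5 for hair cells (P1 against E16), 1 to 5 for hair cells (P7 against P1), 0 to 1 for pillar cells (P1 against E16), 1 to 5 for Deiters' cells (P7 against P1), 4 to 7 for pillar cells over other cells (P7 against P1) and 3 to 7 for Deiters' cells over other cells (P7 against P1). Other counts moved by at most 1.5 times when a library was left out. The causes of these changes were not tested. The thinned fit called 0 of 8083 genes in all in P7 pillar cells against other cells, 27 of 8695 in E14 HCs and 81 of 8605 in E16 pillar cells. With 2 libraries per class, a class comparison with 1 library left out has no test and was not run as one. Thinning lost none of the pillar, Deiters' or hair cells, since all held at least 1500 UMIs. Thinned, Tuba1a, Tuba1b and Tubb4b had an adjusted p of 0.172 in P7 pillar cells against other cells, while in the fit without the library as a block they were still called, with all UMIs kept. The 2 settings of spread weights and non-cycling cells, and the 4 comparisons of a difference between ages, were chosen after the data had been seen. The weights lost the Tuba4a call of pillar cells from P1 to P7. Replicate numbers did not pair libraries across ages: over 10 pairs of the same number, the correlation of deviations from the group mean was -0.27 to 0.10, with 1 above 0.1. The replicate block gave counts of 5 for other cells (E16 against E14), 1 for other cells (P1 against E16), 3 for hair cells (E16 against E14), 4 for hair cells (P1 against E16), 0 for pillar cells (P1 against E16) and 5 for hair cells over other cells (P1 against E16). P7 and P1 share 1 number, so no such block could be fitted there. Few cells limit the P7 pillar class (25 cells), and changes in Tubb3, Tubb6 and Tuba1c near 10 CPM are understated by the pseudocount.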
